A study of Bos taurus with 56 samples.

Results

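The epithelium of the isthmus contralateral to the corpus luteum (CL) was compared between 4 post-partum lactating and 5 post-partum non-lactating cows. These 9 libraries, 1 per cow, were the columns of the deposited count table that named the contralateral isthmus and either metabolic group, and they were 9 of the 56 libraries of the series. All 9 animals were Holstein cows after a first calving. The lactating cows had been milked since calving, whereas the non-lactating cows had been dried off at calving and were never milked. At about 60 days post-partum their cycles were synchronized with a progesterone device, a prostaglandin analogue and buserelin, and both groups received the same treatment. The oviducts were taken 3 days after estrus, and the epithelial cells were scraped from the side without the CL. Both groups had therefore calved, and differed by design in whether they were milked. The other libraries came from the ampulla, from the ipsilateral isthmus and from 5 nulliparous heifers, and the heifers serve here as reference values in the same tissue and in 1 alternative fit.

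The isthmus is the narrow, uterine end of the oviduct, in which sperm are stored and through which the early embryo passes. Its lining holds secretory cells, which release oviductin (OVGP1) and other proteins into the lumen, and ciliated cells, which move the fluid. Lactation draws glucose, fatty acids and cholesterol into milk and is accompanied by changes in growth hormone, insulin and IGF1, so the genes that answer to sterols, energy supply, glucocorticoids and inflammation were followed as lists. A contralateral oviduct carries no embryo in a single ovulation and is less exposed to the hormones that pass locally from the ovary with the CL to its own oviduct.

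The table gave 1901454 to 5274847 counts on genes per library, with medians of 4662131 in lactating and 4130991 in non-lactating cows, and the smallest library was that of non-lactating cow B. Cows are named by letter in the order of the animal numbers in the column names, lactating cows A to D and non-lactating cows A to E, and values of a gene are listed in this order. Levels are CPM, each count scaled to a fixed library total, after TMM normalization, which scales the libraries to a common total and does not correct for gene length. Differences are log2 fold changes of lactating minus non-lactating cows with their standard error (SE). Each pair of libraries of a group differed by more than sampling noise, the lowest chi-square per degree of freedom being 5.2 over 16 pairs. This excludes repeat counts of the same library and cannot tell animals apart. Every library was counted as its own animal because the animal numbers in the column names all differed. In the ipsilateral ampulla, which is not used here, the animal numbers of lactating cow B and non-lactating cow C stood under the opposite group, whereas in both isthmus tissues and the contralateral ampulla they stood under the groups given here. Without either cow 0 genes had an adjusted p under 0.05 in the comparison below (edgeR's quasi-likelihood test).

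The libraries held the markers of the cell types of the oviduct lining. The 12 secretory markers summed to 7096 to 17040 CPM in lactating and 1959 to 18060 CPM in non-lactating cows, and the 18 ciliated markers to 6422 to 8119 and 6662 to 8678 CPM. The summed markers of smooth muscle, of endothelium and of fibroblasts reached 66.4, 126 and 622 CPM at most. The summed red blood cell markers reached 1.44 CPM at most, with AHSP at up to 7 counts in a library. Of these markers HBB, HBA and ALAS2 had no count in any of the 9 libraries. GAPDH, a gene of glycolysis, had no count in any of them either, so a count of 0 was not read as absence. For each of the 11 marker lists the ranges of the groups overlapped, so no cell type was separated by lactation at the level of its summed markers. In bulk samples, fewer cells of a type and less RNA per cell cannot be told apart.

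3 libraries, 2 of lactating cows and 1 of a non-lactating cow, each had the most extreme score on 1 of the first 3 principal components. On the first principal component of log2 CPM, with 28.8% of the variance, non-lactating cow C scored 45.5 while the other 8 libraries lay between -27.2 and 9.67. Its level of OVGP1, the main secretory product of the oviduct, was 37.8 CPM against 5079 to 15546 CPM in the other 8 cows. The lowest sum of secretory markers, 1959 CPM, was also that of this cow. The median log2 deviation of the 12 secretory markers from their mean over the 9 libraries was -0.14 in this cow. That lay within the range of the non-lactating cows, -0.221 to 0.288. A low OVGP1 also occurred among the heifers, whose values ranged from 97.5 to 19007 CPM with a median of 6665. The second component (17.0%) set lactating cow C apart at -40.7, and the third (13.5%) lactating cow A at 31.9.

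**Figure D1:**
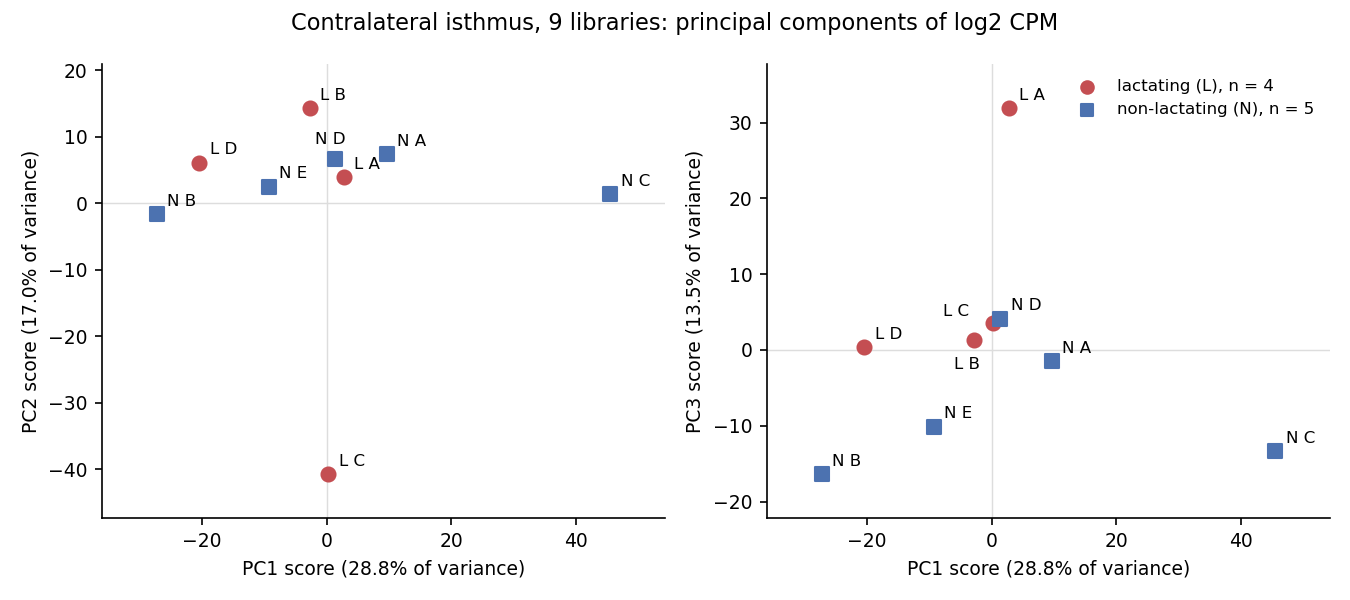
Principal components of log2 CPM of the 9 contralateral isthmus libraries, PC1 against PC2 on the left and PC1 against PC3 on the right, with lactating cows (L A to L D) as circles and non-lactating cows (N A to N E) as squares. The most extreme score of each component is that of a single animal (N C at 45.5 on PC1, L C at -40.7 on PC2, L A at 31.9 on PC3). N B (-27.2) and L D (-20.4) lie toward the other end of PC1, and the groups are not separated.

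Lactating cow A carried the highest summed markers of lymphocytes, macrophages, neutrophils and B or plasma cells, but not of mast cells. Its 16 lymphocyte markers summed to 210 CPM, against 27.9 to 58.9 CPM in the other lactating cows and 29.7 to 97.5 CPM in the non-lactating cows. Its macrophage markers summed to 142 CPM (others 22.6 to 76.7 CPM) and its neutrophil markers to 28.4 CPM (others 1.504 to 9.59 CPM). Among the neutrophil markers it had 36 counts of S100A8 and 13 of S100A9, which are also in the mucosal defence list below. CXCR2, MMP8 and TREM1 had no count in any library. The mast cell markers summed to 169 CPM in lactating cow A and to 266 CPM in non-lactating cow B. The gene with the largest log2 fold change of all, IGLL1, an immunoglobulin light chain-like gene named here after its values were seen, was at 321 CPM in this cow and at 0.188 to 9.02 CPM in the other 8. The adhesion molecule VCAM1, also named after its values were seen, was at 94.5 CPM in lactating cow A and at no more than 4.17 CPM elsewhere. Immune lists are therefore given below with and without this cow.

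Distances between libraries did not separate the groups. Across the 10867 genes whose log2 CPM averaged more than 3, the root mean square log2 difference had a median of 0.503 over the 20 pairs of a lactating and a non-lactating cow (0.412 to 0.688). It was 0.523 over the 6 pairs of lactating cows (0.452 to 0.568) and 0.514 over the 10 pairs of non-lactating cows (0.433 to 0.728). Averaged over all other libraries, it was largest for non-lactating cow C (0.62), lactating cow C (0.561) and non-lactating cow B (0.536), the smallest library. Lactating cow A followed at 0.513. Cows of different metabolic status were thus no farther from each other than cows of the same status.

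No gene was differentially expressed between lactating and non-lactating cows in the contralateral isthmus. Of 13902 genes tested with edgeR's quasi-likelihood test, 0 (0%) passed a Benjamini-Hochberg adjusted p under 0.05, and the smallest adjusted p was 0.792. Without adjustment 548 genes (3.94%) had a p under 0.05, 260 with higher (1.87%) and 288 with lower estimates (2.07%) in lactating cows, where an even spread of p-values gives 695.1. DESeq2's Wald test called 2 genes and edgeR's likelihood ratio test 3. These were BLA-DQB and LOC100847175 in both, and SMIM10 in the likelihood ratio test.

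The estimates were centred on 0 and most were narrow. The median log2 fold change was 0.000507, with 6970 estimates above and 6932 below 0. The SE had a median of 0.199, and its 10th and 90th percentiles were 0.113 and 0.445. For 10883 genes (78.3%) the 95% confidence interval lay within a 2-fold difference in either direction. This share rose with the level of the gene, from 40.4% of genes at 1 to 10 CPM to 90.9% at 10 to 100 CPM and 95.7% above 100 CPM. Differences above 2-fold were thus excluded by the interval for most genes above 10 CPM, and for fewer than 1 in 2 of the genes below it. A point estimate past 2-fold was found for 207 genes (1.49%), 149 higher (1.07%) and 58 lower (0.417%) in lactating cows.

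**Figure D2:**
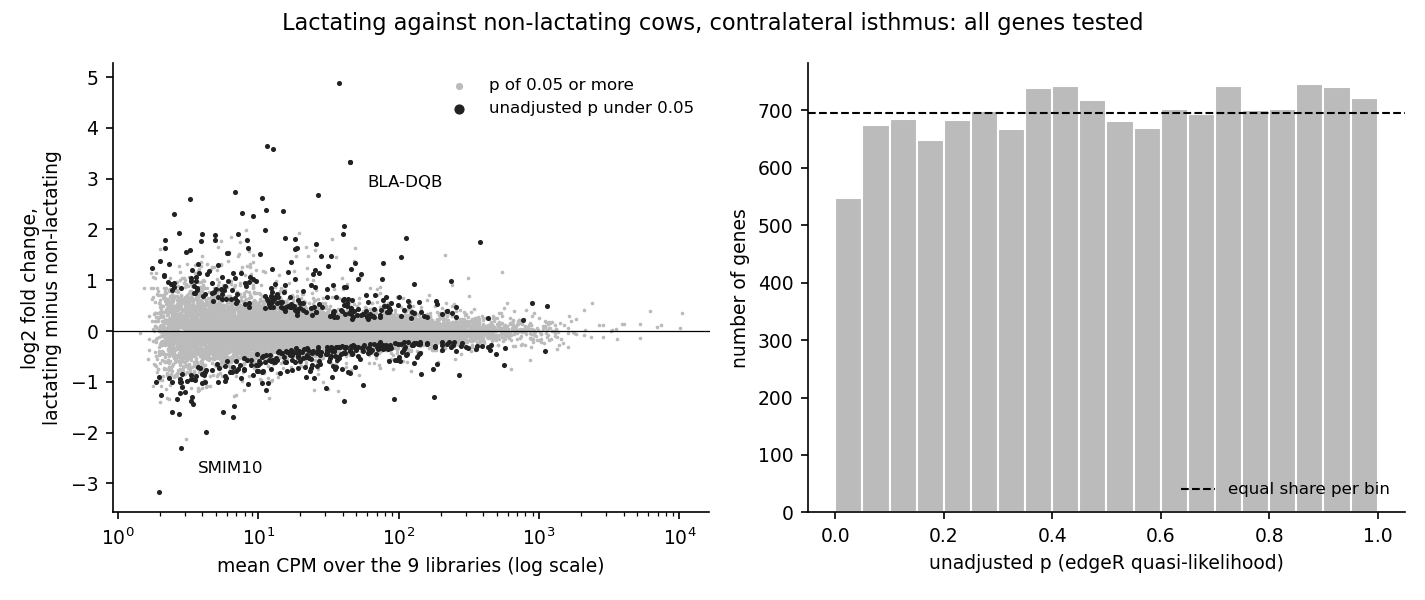
Left, log2 fold change of lactating minus non-lactating cows against the mean CPM over the 9 libraries (log scale) for the 13902 genes tested, with the 548 genes at an unadjusted p under 0.05 in black. Right, the number of genes per bin of unadjusted p, with an equal share per bin as a dashed line; the first bin, at 548, lies below the line at 695.1.

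The gene with the smallest p was BLA-DQB, a beta chain of the major histocompatibility complex (MHC) class II molecules that present peptides to helper T cells. It stood at 111, 83.1, 157 and 15.2 CPM in lactating cows and at 12.5, 2.66, 10.3, 8.10 and 9.26 CPM in non-lactating cows. The groups did not overlap, but lactating cow D, at 15.2 CPM, lay close to the highest non-lactating cow. The heifers, at 3.52 to 15.4 CPM, lay close to the non-lactating cows and overlapped with both groups. The difference was 3.33 ± 0.54 (SE), with an adjusted p of 0.792 by edgeR's quasi-likelihood test. It was called by DESeq2 (adjusted p = 0.00366). Without lactating cow D it was also called by the quasi-likelihood test, with a difference of 3.68 and an adjusted p of 0.00279. Genes of the DQ family have near-identical copies, between which reads can be split, so the level of a single DQ gene is uncertain.

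LOC100847175, named here because DESeq2 called it, had 33.7, 21.3, 19.95 and 19.0 CPM in lactating and 10.6, 11.2, 8.46, 12.96 and 9.75 CPM in non-lactating cows. Every lactating cow lay above every non-lactating cow. The difference was 1.16 ± 0.21, with an adjusted p of 0.83 by edgeR's quasi-likelihood test and 0.0348 by DESeq2. The heifers ranged from 5.36 to 40.5 CPM and covered both groups.

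SMIM10, a small membrane protein, had the smallest p among genes with lower estimates in lactating cows. Its level was 1.23, 0.421, 0.658 and 1.20 CPM in lactating and 5.21, 2.66, 5.08, 3.24 and 5.61 CPM in non-lactating cows. The groups did not overlap, at a low level that amounted to 110 counts over the 9 libraries. The difference was -2.31 ± 0.42 (adjusted p = 0.83, edgeR's quasi-likelihood test).

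In 159 genes (1.14%) the groups did not overlap, 65 with all lactating cows above (0.468%) and 94 with all lactating cows below the non-lactating cows (0.676%). The 10 with the smallest p of each direction and a gene symbol are described here. They were chosen by p and by the lack of overlap in these libraries, so neither is a finding about them, and apart from the alternative tests of BLA-DQB and SMIM10 none passed an adjusted p under 0.05.

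Among those with lower levels in lactating cows, AIG1, a hydrolase of fatty acid esters of hydroxy fatty acids, had 22.4, 25.05, 23.5 and 27.7 CPM in lactating and 38.6, 41.6, 34.2, 40.0 and 32.7 CPM in non-lactating cows. The groups did not overlap, and the heifers, at 34.2 to 44.9 CPM, lay above all lactating cows. The difference was -0.60 ± 0.13. CARNS1, the enzyme that makes carnosine, had 18.9, 19.8, 21.3 and 25.2 CPM in lactating and 30.7, 32.5, 31.8, 33.2 and 31.4 CPM in non-lactating cows. The non-lactating cows lay close together, and the heifers (24.2 to 31.4 CPM) overlapped with both groups. The difference was -0.58 ± 0.13. SLITRK6, a membrane protein with leucine-rich repeats, was at 20.1, 29.0, 22.6 and 30.3 CPM in lactating and 45.5, 50.6, 45.3, 40.2 and 33.4 CPM in non-lactating cows. ARRDC1, an arrestin-like protein that drives the budding of vesicles from the plasma membrane, was at 27.7, 29.3, 30.9 and 26.9 CPM against 50.5, 47.4, 39.9, 36.5 and 38.7 CPM. Their differences were -0.75 ± 0.17 and -0.57 ± 0.13.

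The other 5 were GGT6, FXYD3, UST, LFNG and ISOC1. GGT6, of the gamma-glutamyltransferase family of glutathione metabolism, lay at 11.4 to 19.7 CPM in lactating and 23.4 to 30.2 CPM in non-lactating cows (-0.71 ± 0.17). FXYD3, a regulator of the sodium pump, lay at 0.481 to 2.06 CPM and 2.97 to 11.7 CPM (-1.98 ± 0.53). UST, which sulfates uronic acids of glycosaminoglycans, LFNG, a glycosyltransferase that modifies Notch receptors, and ISOC1 had differences of -0.81 ± 0.22, -0.79 ± 0.22 and -0.55 ± 0.15. In all 5 the heifers overlapped at least 1 of the groups of cows.

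Among the genes with higher levels in lactating cows, DUSP1, a phosphatase that inactivates MAP kinases and is induced by glucocorticoids, had 64.9, 66.3, 50.2 and 50.3 CPM in lactating and 34.5, 32.0, 38.4, 36.7 and 46.8 CPM in non-lactating cows. The groups were apart, with non-lactating cow E closest to the lactating cows. The difference was 0.62 ± 0.14, and over the 9 fits without a library it ranged from 0.54 to 0.71. CPNE8, a calcium-dependent phospholipid-binding protein, was at 109, 90.5, 90.6 and 93.3 CPM against 64.4, 69.8, 43.1, 65.9 and 70.2 CPM (0.62 ± 0.14). TMEM243, a membrane protein, was at 16.2, 17.7, 17.5 and 17.8 CPM against 8.87, 11.7, 9.78, 11.6 and 12.9 CPM (0.66 ± 0.17). The lactating cows lay close together in this gene.

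3 of the 10 act in cell division or in tight junctions. NCAPH, a subunit of the condensin complex that compacts mitotic chromosomes, was at 4.32, 3.16, 3.51 and 3.13 CPM in lactating and 0.579, 1.07, 2.07, 0.540 and 1.22 CPM in non-lactating cows (1.63 ± 0.42). ANLN, an actin-binding protein of the cleavage furrow, was at 14.4 to 21.5 CPM and 6.17 to 13.9 CPM (0.93 ± 0.26). CLDN11, a claudin of tight junctions, was at 9.04, 10.1, 10.7 and 8.18 CPM and 5.59, 3.73, 2.07, 4.32 and 0.731 CPM (1.53 ± 0.42). FOXN4, a forkhead transcription factor, DPYD, which breaks down pyrimidines, and ACD, a telomere protein, had differences of 1.79 ± 0.48, 0.41 ± 0.11 and 0.45 ± 0.14.

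**Figure D3:**
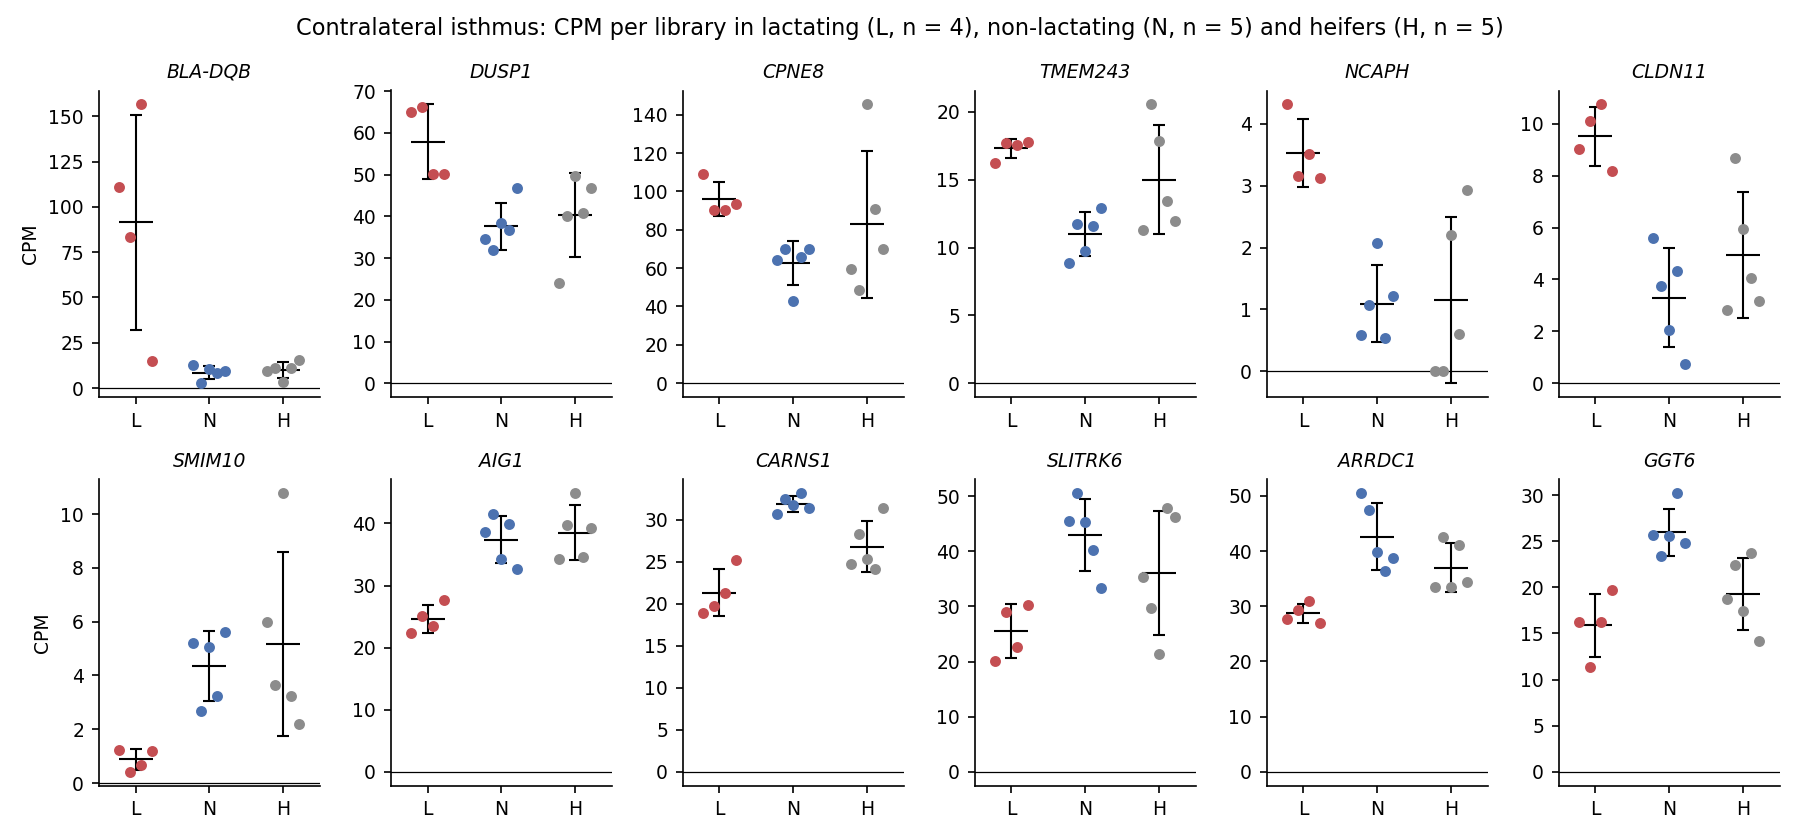
CPM per library of 12 genes in the contralateral isthmus of lactating cows (L, n = 4), non-lactating cows (N, n = 5) and heifers (H, n = 5), with the mean as a horizontal bar and the SD as error bars; the upper row holds genes with higher, the lower row genes with lower values in lactating than in non-lactating cows. The heifers, which took no part in the choice of these genes, lie at 3.52 to 15.4 CPM in BLA-DQB, above all lactating cows in AIG1, and spread over the range of both groups of cows in CPNE8. Their values were normalized in a fit of cows and heifers together, those of the cows in a fit of the cows alone.

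The genes of 20 pathways were then followed as lists. Of the 330 distinct listed genes tested, 0 had an adjusted p under 0.05 (edgeR's quasi-likelihood test) and 35 (10.6%) an unadjusted p under 0.05, 22 with higher and 13 with lower estimates in lactating cows, against 3.94% of all genes. In 8 of them (2.42%) the groups did not overlap, against 1.14% of all genes. Genes of a pathway vary together between cows and were not counted as independent, and no test of a list was made. The lists were chosen with earlier results of these data known, so the higher shares are no finding about them. Each list is given by the direction of its members and by its median, which over all genes was 0.000507.

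Cholesterol biosynthesis was the list with the lowest median. Of its 23 genes 21 had estimates below 0 in lactating cows, with a median of -0.33, and 6 had an unadjusted p under 0.05, all below 0. INSIG1, which holds sterol sensing in the endoplasmic reticulum, had 16.2, 15.997, 20.6 and 14.2 CPM in lactating and 30.7, 21.3, 51.3, 43.7 and 11.5 CPM in non-lactating cows. Non-lactating cows C and D were high and non-lactating cow E was the lowest of all, so the groups overlapped. The difference was -0.93 ± 0.36, with a 95% confidence interval from -1.72 to -0.15. HMGCS1, which makes HMG-CoA, was at 103, 93.0, 104 and 100 CPM in lactating and 151, 122, 297, 230 and 96.0 CPM in non-lactating cows. It was even among the lactating cows, while the non-lactating cows spread widely and overlapped with them through cow E (-0.85 ± 0.28). IDI1, an isomerase of the pathway, had a difference of -0.72 ± 0.26, MVD one of -0.67 ± 0.29 and DHCR7, the last step to cholesterol, one of -0.34 ± 0.14.

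The list varied more among the non-lactating cows than between the groups. The median deviation of its genes from their mean over the 9 libraries (log2) was -0.017, -0.096, -0.30 and -0.39 in lactating cows A to D and 0.23, -0.11, 0.48, 0.49 and -0.355 in non-lactating cows A to E. All 4 lactating cows lay below 0, and non-lactating cows B and E lay among them. The heifers, on the same scale, lay between -0.055 and 0.59 with a median of 0.18. With each library left out, 19 to 22 of the 23 genes were below 0 and the median ranged from -0.43 to -0.19. The number at an unadjusted p under 0.05 fell to 1 without lactating cow D or non-lactating cow C and to 2 without non-lactating cow D, and it rose to 12 without non-lactating cow E.

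The medians of the other metabolic lists were closer to 0. In fatty acid and triglyceride synthesis 13 of 17 genes were below 0, with a median of -0.13. FASN, the fatty acid synthase, was at 133, 129, 109 and 106 CPM in lactating and 155, 145, 192, 199 and 115 CPM in non-lactating cows. Only non-lactating cow E overlapped with the lactating cows in this gene (-0.44 ± 0.16). SREBF1, the transcription factor of lipid synthesis, had an estimate of -0.28 ± 0.12, and the counts of genes below 0 ranged from 10 to 15 over the fits without a library. In glycolysis 14 of 18 genes were below 0 (median -0.15), with ALDOC (-1.04 ± 0.38) alone at an unadjusted p under 0.05.

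In fatty acid oxidation 14 of 21 genes were above 0 (median 0.084). PPARA, a nuclear receptor for fatty acids, went the other way, with 16.4, 15.997, 14.3 and 16.1 CPM in lactating and 20.2, 22.9, 21.6, 27.8 and 18.3 CPM in non-lactating cows. The groups did not overlap in PPARA (-0.49 ± 0.16), and the heifers lay at 23.3 to 33.1 CPM. PDK4, the kinase that shuts off glucose oxidation, was at 627, 741, 112 and 263 CPM in lactating and 452, 131, 169, 126 and 173 CPM in non-lactating cows. 2 of the 4 lactating cows lay above all non-lactating cows and lactating cow C below them. The difference of 1.05 ± 0.52 thus stayed within the spread, with a 95% confidence interval from -0.08 to 2.18. The PDK4 estimate was 0.66 without lactating cow B and 1.54 without non-lactating cow A. The 23 genes of the respiratory chain had a median of -0.025, with none at an unadjusted p under 0.05.

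The medians of the insulin, IGF and growth hormone lists were near 0. The 16 tested genes of the insulin and IGF axis had a median of 0.046 and none reached an unadjusted p under 0.05. IGF1R was at 140, 111, 147 and 108 CPM in lactating and 119, 106, 138, 120 and 120 CPM in non-lactating cows. Its difference was 0.06 ± 0.12, with a 95% confidence interval from -0.21 to 0.34. The binding proteins IGFBP6 (0.98 ± 0.58) and IGFBP3 (-0.76 ± 0.38) had overlapping groups. Of 9 genes of growth hormone and prolactin signalling none reached an unadjusted p under 0.05 (median 0.048), and the prolactin receptor PRLR had a difference of 0.06 ± 0.24. SOCS2 and CISH, feedback inhibitors induced by growth hormone, had estimates of -0.56 ± 0.31 and -0.54 ± 0.30 with overlapping groups.

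Sex steroid receptors did not differ beyond their spread. ESR1 was at 543, 444, 701 and 522 CPM in lactating and 483, 437, 473, 513 and 521 CPM in non-lactating cows. Its difference was 0.19 ± 0.13, with 0.05 without lactating cow C and 0.28 without lactating cow B. PGR, the progesterone receptor, was at 53.5 to 86.7 CPM and 63.5 to 80.6 CPM (-0.04 ± 0.15, 95% confidence interval -0.36 to 0.28). OVGP1 had an estimate of 0.06 ± 0.91, with an interval from -1.94 to 2.06. Without non-lactating cow C the estimate was -0.25 with an SE of 0.288. Of the 13 genes of this list, the homeobox gene MSX1 alone had an unadjusted p under 0.05 (-0.71 ± 0.24).

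The glucocorticoid response list had estimates above 0 in 10 of 15 genes (median 0.26), and 4 reached an unadjusted p under 0.05, all above 0. They were DUSP1, described above, ZBTB16, CEBPD and MT2A. ZBTB16, a transcription factor induced by both glucocorticoids and progesterone, was at 18.3, 62.5, 40.8 and 62.8 CPM in lactating and 22.2, 13.9, 34.2, 23.5 and 27.3 CPM in non-lactating cows. 3 of the 4 lactating cows were above all non-lactating cows (0.90 ± 0.33). CEBPD had a difference of 0.67 ± 0.28, with 0.41 without lactating cow A and 0.87 without lactating cow C. MT2A, a metal-binding metallothionein, had a difference of 0.69 ± 0.29. FKBP5, another classical target, was at 426 to 873 CPM and 447 to 670 CPM with a difference of 0.26 ± 0.20, and the receptor NR3C1 had one of 0.22 ± 0.16. The 5 genes below 0 were HSD11B1 (-0.68 ± 0.38), HSD11B2 (-0.39 ± 0.39), SLC19A2 (-0.21 ± 0.23), PER1 (-0.05 ± 0.18) and TAT (-0.04 ± 0.56). The median of the list ranged from 0.12 without lactating cow B to 0.43 without lactating cow C, and the number of its genes at an unadjusted p under 0.05 was 1 and 6 in these fits. Its median deviation lay between -0.39 and 0.53 in lactating cows, -0.31 and 0.08 in non-lactating cows, and -0.047 and 0.395 in heifers (heifer median 0.248).

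Of 18 immediate early genes, which overlap with this list in DUSP1, 13 were above 0 (median 0.15), and ZFP36, which destabilizes cytokine mRNAs, had a difference of 0.53 ± 0.18. In the circadian clock 11 of 18 genes were below 0 (median -0.041), among them TEF, whose groups did not overlap (17.8 to 30.8 CPM and 31.6 to 38.9 CPM, -0.44 ± 0.17). The unfolded protein response (17 genes, median 0.033), antioxidant defence (21 genes, median -0.027) and calcium transport (12 genes, median 0.025) had no common direction. In antioxidant defence, HMOX1, which degrades haem, was at 26.7, 14.1, 3.73 and 9.38 CPM in lactating and 3.47, 5.33, 2.63, 3.78 and 6.82 CPM in non-lactating cows. Lactating cow C overlapped with the non-lactating cows in HMOX1. The difference was 1.64 ± 0.49, with 1.07 without lactating cow A and 1.95 without lactating cow C.

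All 23 tested genes of the interferon response had estimates above 0, with a median of 0.41, and 3 had an unadjusted p under 0.05. MX2, an antiviral GTPase, was at 85.7, 20.6, 57.9 and 22.8 CPM in lactating and 18.5, 19.7, 17.5, 20.8 and 19.98 CPM in non-lactating cows. Lactating cows A and C were high, while lactating cows B and D lay at or just above the level of the non-lactating cows (1.28 ± 0.37). IFIT5 had a small difference of 0.27 ± 0.10, with 71.4 to 86.3 CPM against 60.7 to 73.4 CPM. Without lactating cow A the estimate of MX2 was 0.82. HERC6 had a difference of 0.56 ± 0.24, and one of 0.25 without lactating cow C, its highest library. The list followed the pattern of MX2: its median deviation was 0.66, -0.34, 1.02 and -0.43 in lactating cows A to D and lay between -0.43 and 0.28 in the non-lactating cows. Lactating cows A and C were thus above and lactating cows B and D within the non-lactating range. The heifers, on the same scale, lay between -0.50 and 0.695 with a median of -0.22. The highest of them, heifer E, lay just above lactating cow A. Without lactating cow C 17 of the 23 genes were above 0 (median 0.17), and without lactating cow A 18 (median 0.27).

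MHC class II had the highest median of all lists, 1.22, with 8 of 9 genes above 0. CD74, the invariant chain, was at 1885, 305, 749 and 210 CPM in lactating and 299, 255, 228, 720 and 263 CPM in non-lactating cows. CIITA, the coactivator that switches the class II genes on, was at 40.3, 4.84, 93.4 and 3.37 CPM and 11.0, 6.93, 9.02, 21.3 and 7.31 CPM. Lactating cows A and C were again the highest and lactating cow D the lowest of all 9 in both genes. BOLA-DQA5, with 82.6 CPM in lactating cow A, had no count in lactating cow B, 4.17 CPM in lactating cow C, 8.18 CPM in lactating cow D and 0.533 to 4.05 CPM in the non-lactating cows (3.64 ± 1.16, and 1.11 without lactating cow A). BOLA-DMB had a difference of 1.22 ± 0.51, and one of 0.68 without lactating cow A. BLA-DQB differed from this pattern in lactating cow B, where it was at 83.1 CPM. CD74 lay within the range of the non-lactating cows in this library, and CIITA lay below all of them. Without lactating cow A the median of the list was 0.44, with 6 of 9 genes above 0 and 1 at an unadjusted p under 0.05. The markers of lymphocytes and macrophages were also highest in lactating cow A, and their part in the result was not tested.

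The complement list turned on the same cow. 14 of its 17 genes were above 0 (median 0.48), with C1R, C3 and SERPING1 at an unadjusted p under 0.05. C1R, a protease of the classical pathway, was at 41.1, 1.05, 9.43 and 0.481 CPM in lactating and at 0.752 to 4.05 CPM in non-lactating cows. C3, the central component, was at 1350, 85.0, 594 and 443 CPM in lactating and 112, 363, 17.1, 306 and 123 CPM in non-lactating cows. 3 of the 4 lactating cows were above all non-lactating cows in C3 (1.76 ± 0.78). Without lactating cow A 9 of the 17 genes were above 0 and none had an unadjusted p under 0.05. The estimates of C1R, C3 and SERPING1 were then 0.92, 1.04 and 0.40. In the acute phase and mucosal defence list 9 of 12 genes were above 0 (median 0.22), and without lactating cow A the median was -0.18 with 4 genes above 0. LTF (lactoferrin), a member of this list, was at 1046 CPM in lactating cow A and at 59.0 to 204 CPM in the other 8 cows, and its estimate was 1.501 with and -0.28 without this cow. The mucin MUC4 went the other way in this cow, with 93.7, 459, 292 and 451 CPM in lactating and 163, 232, 98.1, 141 and 188 CPM in non-lactating cows (0.98 ± 0.38).

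The lists of lymphocyte (8 genes tested) and macrophage markers (6 genes) had medians of 0.54 and 0.47, and without lactating cow A of -0.49 and -0.064. Of 16 proliferation genes 11 were above 0 (median 0.26). CENPF, a kinetochore protein, had a difference of 1.12 ± 0.47, with lactating cow C at 67.3 CPM and an estimate of 0.59 without it, while MKI67 was highest in lactating cow A (36.0 CPM) and overlapped between the groups. The median of ERBB ligands and MAPK feedback genes was 0.15, and their extreme, ETV5 (2.27 ± 0.86), rested on lactating cow C, at 50.9 CPM against 0.540 to 8.18 CPM in the other cows, and was 0.55 without it. HBEGF, an EGF receptor ligand, was even, with 6.10 to 8.99 CPM in lactating and 3.38 to 5.98 CPM in non-lactating cows (0.63 ± 0.27).

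Markers of ciliated cells were below 0 in 15 of 18 genes with a small median of -0.11. FOXJ1, the master regulator of motile cilia, was at 215, 250, 193 and 208 CPM in lactating and 275, 272, 210, 278 and 279 CPM in non-lactating cows. Non-lactating cow C overlapped with the lactating cows in FOXJ1 (-0.28 ± 0.12), and SPAG17, a protein of the ciliary axoneme, had a difference of -0.27 ± 0.11. The axonemal dynein DNAH5 was at 1761 to 2882 CPM and 2031 to 2737 CPM (-0.13 ± 0.15). Without lactating cow A 10 of the 18 genes were below 0. Secretory markers had no common direction (7 of 12 above 0, median 0.014).

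**Figure D4:**
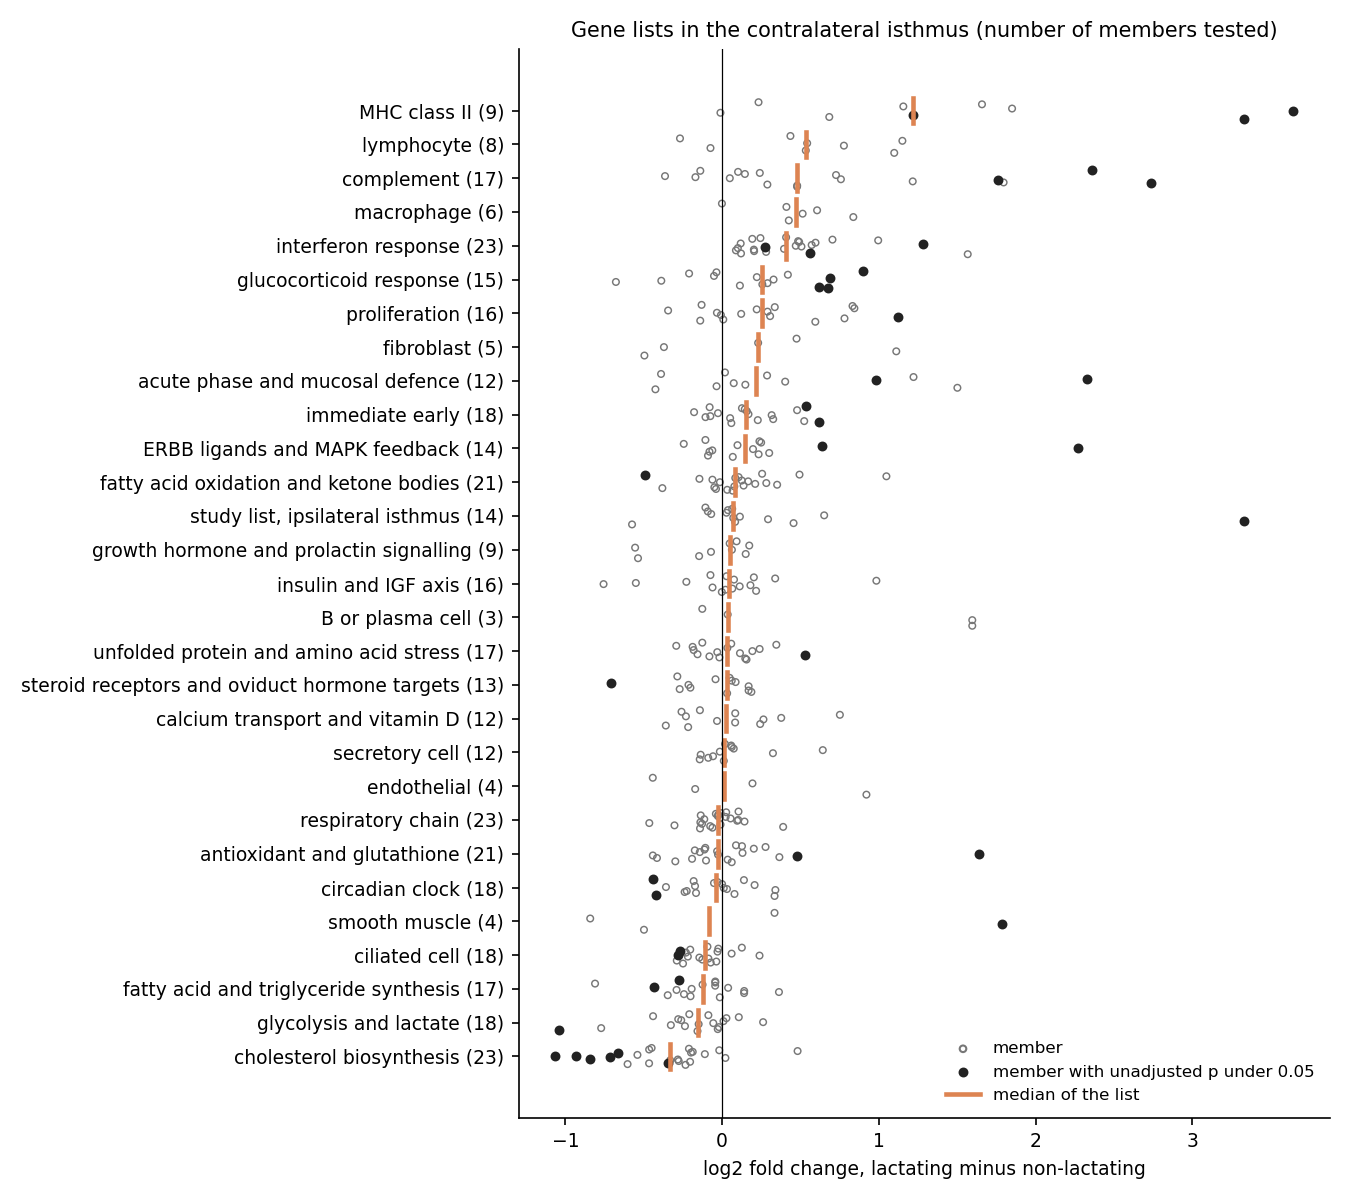
Log2 fold change (lactating minus non-lactating cows) of every tested member of the lists with at least 3 tested genes, with the median of each list as an orange bar, members at an unadjusted p under 0.05 filled, and the number of members tested in parentheses. The medians run from -0.33 in cholesterol biosynthesis to 1.22 in MHC class II, and every member of the interferon response lies above 0.

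The same comparison was made in the ipsilateral isthmus and in the contralateral ampulla of the same cows, to show where the contralateral isthmus differed. The 3 tissues come from the same 9 animals and are not independent. In the ipsilateral isthmus 0 of 14077 genes (0%) and in the contralateral ampulla 0 of 14067 genes (0%) had an adjusted p under 0.05 by edgeR's quasi-likelihood test, and 881 (6.26%) and 712 genes (5.06%) an unadjusted p under 0.05. The corresponding share of the contralateral isthmus, 3.94%, was the lowest of the 3. DESeq2 called 16 genes in the ipsilateral isthmus and 2 in the contralateral ampulla. The spread between cows was smallest in the contralateral isthmus, with a common biological coefficient of variation of 24.7% against 26.8% and 34.4%.

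The difference between the metabolic groups was not shown to depend on the side or on the region. The interaction of metabolic group and side passed an adjusted p under 0.05 in 0 of 14739 genes (0%) by edgeR's quasi-likelihood test, with 380 (2.58%) at an unadjusted p under 0.05, and that of group and region in 0 of 14986 genes (0%), with 362 (2.42%). DESeq2's likelihood ratio test also called 0 genes in both. With the animal as a block 0 genes were called either, and the counts at an unadjusted p under 0.05 were 723 and 566. The precision of these tests was lower, with a median SE of 0.308 for the side and 0.367 for the region.

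TMEM243 had the smallest p of the side interaction. In the ipsilateral isthmus it was at 17.8, 20.3, 18.5 and 21.6 CPM in lactating and 23.6, 29.1, 21.6, 23.6 and 23.9 CPM in non-lactating cows. Lactating cow D and non-lactating cow C were almost level there, and the other lactating cows lay below all non-lactating cows, the opposite of the contralateral isthmus. The difference between the sides was 0.98 ± 0.19 (adjusted p = 0.99987, and 0.421 with the animal block, edgeR). STEAP4, a metalloreductase, had 107, 140, 165 and 122 CPM in lactating and 120, 91.6, 178, 156 and 104 CPM in non-lactating cows in the contralateral isthmus, and its groups overlapped there. In the ipsilateral isthmus it had 83.6, 62.5, 148 and 119 CPM in lactating and 31.3, 37.2, 48.6, 20.2 and 33.9 CPM in non-lactating cows, and the groups were apart. The differences were 0.04 ± 0.20 and 1.59 ± 0.27, and that between them -1.56 ± 0.37 (adjusted p = 0.99987, and 0.421 with the animal block, edgeR). MYRF (1.42 ± 0.38), SUPT3H (-1.13 ± 0.25) and IL20RA (-1.50 ± 0.39) followed. For the region the 5 genes with the smallest p were GPD1L, COL23A1, COA5, CHGA and SLMO1, each with an adjusted p of 0.99994 (edgeR).

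BLA-DQB had nearly the same difference in the 3 tissues, 3.33 ± 0.54 in the contralateral isthmus, 3.58 ± 0.63 in the ipsilateral isthmus and 3.42 ± 0.79 in the contralateral ampulla. In the ipsilateral isthmus it was at 227, 49.6, 93.6 and 14.95 CPM in lactating and 11.2, 4.16, 6.68, 7.46 and 11.1 CPM in non-lactating cows, 1 of 258 genes (1.83%) whose groups did not overlap on that side, against 240 genes (1.71%) in the ampulla. Lactating cow D was the lowest lactating cow in each of the 3 tissues, and in the ampulla, at 21.3 CPM, it overlapped with the non-lactating cows (0.200 to 27.1 CPM). SMIM10 was lower in every lactating than in every non-lactating cow of all 3 tissues, with differences of -1.76 ± 0.46 in the ipsilateral isthmus and -5.07 ± 1.09 in the ampulla. The last value rests on lactating cows of which 3 had no count and is no bound. GGT6 (-0.85 ± 0.23 and -0.75 ± 0.27), CPNE8 (0.57 ± 0.15 and 0.28 ± 0.27) and ANLN (0.80 ± 0.29 and 0.43 ± 0.27) had the same sign in the ipsilateral isthmus and the ampulla as in the contralateral isthmus. AIG1 (-0.07 ± 0.13 and -0.10 ± 0.22) and DUSP1 (-0.01 ± 0.28 and 0.34 ± 0.23) were near 0 or within 2 SE of it in both, and NCAPH (-0.77 ± 0.62) and CLDN11 (-0.90 ± 0.80) had the opposite sign in the ipsilateral isthmus. None of these had an adjusted p under 0.05 in either interaction.

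**Figure D5:**
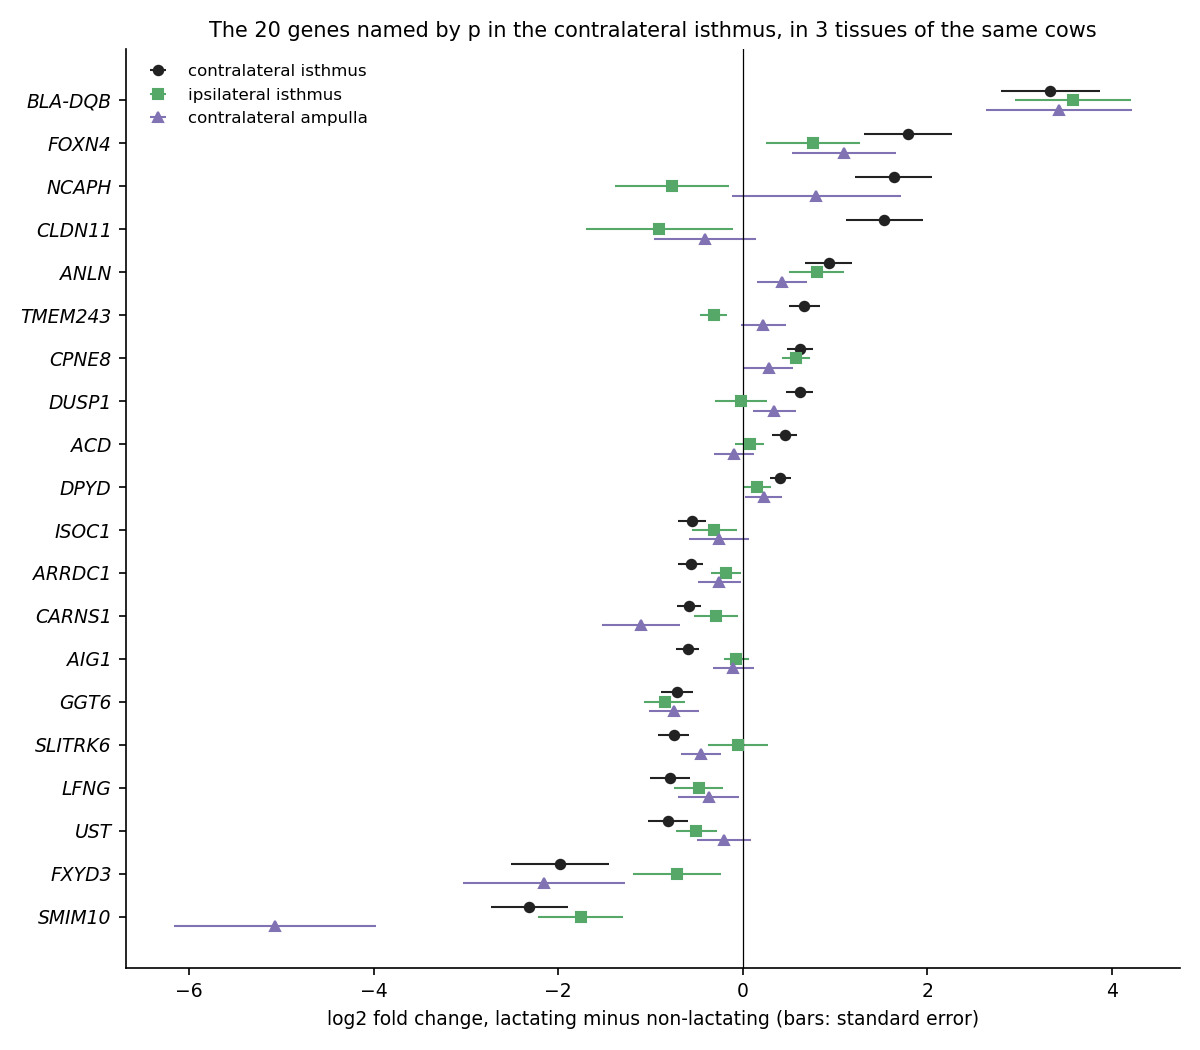
Log2 fold change of lactating minus non-lactating cows, with the SE as bars, for the 20 genes with the smallest p and no overlap of the groups in the contralateral isthmus, in that tissue (circles), the ipsilateral isthmus (squares) and the contralateral ampulla (triangles) of the same cows. The genes were chosen on the circles. BLA-DQB lies above 3 in all 3 tissues, and TMEM243, NCAPH and CLDN11 lie on opposite sides of 0 in the 2 isthmus tissues.

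A further list held 15 genes that had been selected for lactating against non-lactating cows in the ipsilateral isthmus. They were chosen on those libraries, so their values on that side are no independent evidence, while the contralateral libraries took no part in the choice. 14 of them were tested in the contralateral isthmus, with 10 estimates above and 4 below 0 and a median log2 fold change of 0.067. On the ipsilateral side 8 were above and 6 below 0, each at an unadjusted p under 0.05. In the contralateral isthmus BLA-DQB alone had an unadjusted p under 0.05 (edgeR's quasi-likelihood test for both). ANK2, which ties membrane proteins to the cytoskeleton, was at 565, 558, 539 and 1072 CPM in lactating and 898, 654, 836, 1589 and 1113 CPM in non-lactating cows. It overlapped through lactating cow D and had a difference of -0.58 ± 0.27 on the contralateral and -0.90 ± 0.19 on the ipsilateral side. The contralateral value was -0.88 without lactating cow D and -0.36 without non-lactating cow D. TGFA had differences of -0.11 ± 0.28 and -0.84 ± 0.15 on these sides, FAT4, an atypical cadherin, of 0.29 ± 0.27 and 1.04 ± 0.23, and ATP13A5 of 0.46 ± 0.53 and 1.80 ± 0.38. Others had estimates of opposite sign on the sides, MYRF 0.03 ± 0.29 and -1.39 ± 0.23, KCNH3 0.07 ± 0.29 and -0.88 ± 0.18, ATP2B2 0.08 ± 0.31 and -0.82 ± 0.17, and MYLK3 -0.07 ± 0.16 and 0.69 ± 0.15. SPP1 (osteopontin) did not pass the filter on low counts and had 7, 284, 5 and 5 counts in lactating and 8, 0, 37, 5 and 7 counts in non-lactating cows, so that 1 lactating cow held most of them.

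The lists of the contralateral isthmus can be set beside those of the other tissues. The median of cholesterol biosynthesis was -0.33 in the contralateral isthmus, -0.30 in the ipsilateral isthmus and -0.030 in the contralateral ampulla, with 21, 19 and 14 of 23 genes below 0. The interferon response had medians of 0.41, 0.63 and 0.42, MHC class II of 1.22, 1.48 and 1.26, and complement of 0.48, 0.89 and 0.56. The glucocorticoid response list had medians of 0.26, 0.039 and 0.39, and ciliated cell markers of -0.11, -0.17 and -0.10. Without lactating cow A the medians in the contralateral isthmus were 0.27 for interferon, 0.44 for MHC class II and 0 for complement, and this cow also had the highest lymphocyte and macrophage markers there. The other tissues were not recomputed per list without it. Differences of these medians between tissues were not tested.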

How the data were processed

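The authors trimmed single-end reads from stranded total RNA libraries, aligned them with TopHat2 (version 2.0.13) to Btau_4.6.1 and counted them per gene and strand with HTSeq (0.6.1). The deposited values are whole-number counts for 31903 genes, not normalized; 5 lines that name no gene were dropped. All RNA had an integrity number of 7.9 or more. Of the counted alignments 8.66 to 12.4% lay on genes in these 9 libraries, which limits depth. Groups come from the column names, which carry animal numbers. Separate animals are replicates.

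In R (4.3.3), edgeR (4.0.16) fitted the 9 libraries with TMM normalization and filterByExpr (minimum count 10), and tested with the quasi-likelihood F test and Benjamini-Hochberg adjustment at 0.05. SEs were derived from the estimate and its F statistic (estimate over the square root of F). The same fit served the ipsilateral isthmus, the contralateral ampulla and, on 18 libraries each, both interactions. DESeq2 (1.42.0), edgeR's likelihood ratio test, other filters, RLE size factors, robust dispersions, thinned counts, heifers in the fit and each library left out were alternatives. Log2 CPM used a prior count of 2. The functions were tested on simulated data.

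Same-numbered libraries of 2 tissues come from the same animal. Over 10770 and 10659 genes, their deviations from the group mean correlated at 0.0965 to 0.563 between sides (median 0.35, above 0.1 in 7 of 9 cows) and at 0.096 to 0.51 between regions (median 0.258, 8 of 9).

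Comparison, lists and tests were chosen with earlier results of these data known. Named genes are the called genes, the 10 per direction with the smallest p among non-overlapping genes, LOC identifiers aside, the study's 15 genes for the ipsilateral isthmus, the 3 with the smallest p in each pathway list, PGR, ESR1, OVGP1, PDK4, IGF1R and PRLR, and 5 genes per interaction. Members named from a list beyond these illustrate it. Of 548 listed genes 513 were found by symbol, 3 by another name and 32 not. Some genes are not reported here. No sequences or coordinates are given, since no sequence of the files' build was used here.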

Additional observations from a re-analysis of the deposited data

Results flagged for a closer look

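In each group of 4 or 5 cows the extreme library was compared with its nearest neighbour by Dixon's criterion at the 95% level, over 230 groups of values of named genes, marker sums and library totals. 23 groups held such a library. The nominal rate of 1 in 20 assumes independent, normally distributed values. The CPM were not log-transformed, and genes that vary together were partly chosen on these libraries. The nominal rate is therefore no measure of how many to expect here.

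Lactating cow A was far above the other lactating cows in BOLA-DQA5 (82.6 CPM, next 8.18), LTF (1046 CPM, next 148), PIGR, which carries antibodies across epithelia (45.01 CPM, next 6.31), SERPING1, the C1 inhibitor (88.4 CPM, next 13.6), and CPNE8 (109 CPM, next 93.3). It was also far above them in the summed lymphocyte markers (210.2 CPM, next 58.9) and neutrophil markers (28.4 CPM, next 5.26). It was the lowest in PCNA, the replication clamp (14.8 CPM, next 18.9), and in TMEM243 (16.2 CPM, next 17.5). Lactating cow C was high in ETV5 (50.9 CPM, next 8.18) and ACADS (12.7 CPM, next 10.1). Lactating cow D was high in ANK2 (1072 CPM, next 565) and KCNH3 (86.6 CPM, next 46.5).

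Non-lactating cow A was high in PDK4 (452 CPM, next 173) and in summed fibroblast markers (622 CPM, next 273) and low in GPD1L (29.5 CPM, next 34.6). Non-lactating cow B was high in DPYD (113 CPM, next 93.4) and PGM5 (14.4 CPM, next 5.85). Non-lactating cow C was high in EGFR (194 CPM, next 149) and low in CPNE8 (43.1 CPM, next 64.4). Non-lactating cow D was high in HERC6 (69.4 CPM, next 48.1) and UST (73.2 CPM, next 50.1), and non-lactating cow E in the clock gene BHLHE40 (45.6 CPM, next 34.3).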

How the results depend on the processing

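In the contralateral isthmus DESeq2 called 2 genes with its defaults and 2 with a beta prior, edgeR's likelihood ratio test 3, and 6 genes had an unadjusted p under 0.001. Leaving out each library gave 0 to 1 genes, the 1 being BLA-DQB without lactating cow D. In the ipsilateral isthmus DESeq2 called 16 genes and leaving out each library gave 0 to 2. In the contralateral ampulla DESeq2 called 2 and leaving out each library gave 0 to 1. For the contralateral isthmus, other filters, RLE size factors, robust dispersions, thinned counts and the heifers in the fit gave 0. The cause of these differences was not tested. Intervals were wider at low levels, with a median SE of 0.37 at 1 to 10 CPM and 0.123 above 100 CPM. What depth and what the variation between cows add to this was not separated.

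Of 1801 values of 101 genes under the alternatives, 1760 kept direction and side of the threshold, 5 passed it and 36 changed sign. LOC100847175 is not among these genes; DESeq2 with and without the beta prior and the likelihood ratio test called it. The sign changed, with libraries left out, in ATP13A5 (-0.26 to 0.75), ATP2B2 (-0.12 to 0.26), IGF1R (-0.02 to 0.13), KCNH3 (-0.25 to 0.24), LOC100847661 (-0.08 to 0.38), LTF (-0.28 to 1.84), MYLK3 (-0.20 to 0.08), MYRF (-0.17 to 0.18), OVGP1 (-0.25 to 0.29), PGM5 (-0.28 to 0.33), PGR (-0.19 to 0.05), PRLR (-0.09 to 0.21), STEAP4 (-0.08 to 0.19), TACR1 (-0.07 to 0.22) and TGFA (-0.27 to 0.11), all log2 fold changes. Of 319 medians of 29 lists, 11 moved beyond the spread between cows.

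No paired analysis was possible because lactating and non-lactating cows are different animals, and a shared replicate number pairs none of them. For the interactions between tissues of the same cows, the fit with the animal as a replicate block called 0 genes for the side and 0 for the region, as did the fits without it.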
